A study of Mus musculus with 16 samples.

Results

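The question addressed here is how 2 opposing marks of the same histone residue, acetylation (H3K27ac) and trimethylation (H3K27me3) of lysine 27 on histone H3, lay relative to each other along the genome of muscle macrophages, and whether places passed from one mark to the other between 2 and 4 days post injury (dpi). All CUT&Tag peak lists of these marks were taken, 4 of H3K27ac and 4 of H3K27me3, which is 8 of the 16 libraries of the series. In CUT&Tag a transposase is tethered by an antibody to nucleosomes that bear the mark, cuts the DNA there and leaves sequencing adapters on the fragments. All mice were wild type C57BL6J males with hind limb ischemia, without an uninjured or untreated group. Macrophages of the ischemic calf muscle were sorted as cells positive for CD45, CD11b, CD64 and F4/80, with 2 libraries per mark and time point. The nuclei of a library are a pool, so that a place marked by both may carry both marks in the same cell or 1 mark in each of several cells, which cannot be told apart in these data.

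A lysine holds an acetyl or a methyl group at a given moment, never both on the same amino group. H3K27ac is placed by the acetyltransferases p300 and CBP and is found at active promoters and enhancers. H3K27me3 is placed by Polycomb repressive complex 2 and covers silenced developmental genes. Promoters that carry H3K27me3 together with H3K4me3, a mark of promoters, are known as bivalent and have been described best in stem cells, but also in differentiated cells such as those of the blood. Between 2 and 4 dpi macrophages of injured muscle pass from an inflammatory to a restorative state, which is why a change of mark at single places was looked for.

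The H3K27ac lists held 29872 and 24976 peaks at 2 dpi and 35971 and 31487 at 4 dpi (replicates 1 and 2). The H3K27me3 lists were shorter, with 12225 and 12060 peaks at 2 dpi and 14791 and 14836 at 4 dpi. H3K27ac peaks covered 65.3 and 37.8 Mb at 2 dpi and 205 and 64.7 Mb at 4 dpi, and H3K27me3 peaks 52.1, 61.0, 79.8 and 80.9 Mb in the same order. H3K27ac 4 dpi replicate 1 stood apart, as its peaks had a median width of 4250 bp, against 1218 to 1719 bp in the other 3 H3K27ac lists and 2924 to 3788 bp in the H3K27me3 lists. It is also the only one of the 8 libraries whose sample description begins with S100. The other 3 H3K27ac libraries begin with S143 and all H3K27me3 libraries with S035, so that the mark and this prefix cannot be told apart. Most contrasts between libraries, and the counts of places with both marks at a time point or passing between marks, are also given without that library. This leaves the H3K27ac libraries of S143. The meeting of regions with the other mark, regions gained or lost, and places marked in all 8 libraries are counted only with it. The read depth of the libraries is unknown, and longer lists may come from deeper libraries. Both marks were sparse on the X chromosome, where H3K27ac covered 0.543% ± 0.290 (SD, n = 4) and H3K27me3 0.456% ± 0.0474 (SD, n = 4) of the length. On the autosomes the means ran from 2.88% to 4.95% for H3K27ac and from 1.96% to 4.19% for H3K27me3. The mice were male and carry a single X, and the cause of the lower cover was not tested.

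The lists of H3K27ac and H3K27me3 shared little DNA. Overlap was measured as the base-pair Jaccard index, the bp that 2 lists have in common divided by the bp found in at least 1 of them. Between the marks it ranged from 0.00650 to 0.0379 over the 16 pairs of libraries, with a mean of 0.0166. Within H3K27ac it ranged from 0.168 to 0.499 and within H3K27me3 from 0.531 to 0.655. Every pair of the same mark thus overlapped more than every pair of different marks. The mean within marks exceeded that between marks by 0.453 (2-sided exact permutation test over 35 relabellings of the 8 libraries, p = 0.0286, the smallest this design allows), with an adjusted p of 0.0643 (Benjamini-Hochberg over 9 tests). Without H3K27ac 4 dpi replicate 1 the mean between marks was 0.0118. The p of the same exact permutation test stayed at 0.0286, with an adjusted p of 0.0429. Lists of the same mark are alike whether or not the marks exclude each other, so that this test cannot show exclusion.

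**Figure D1:**
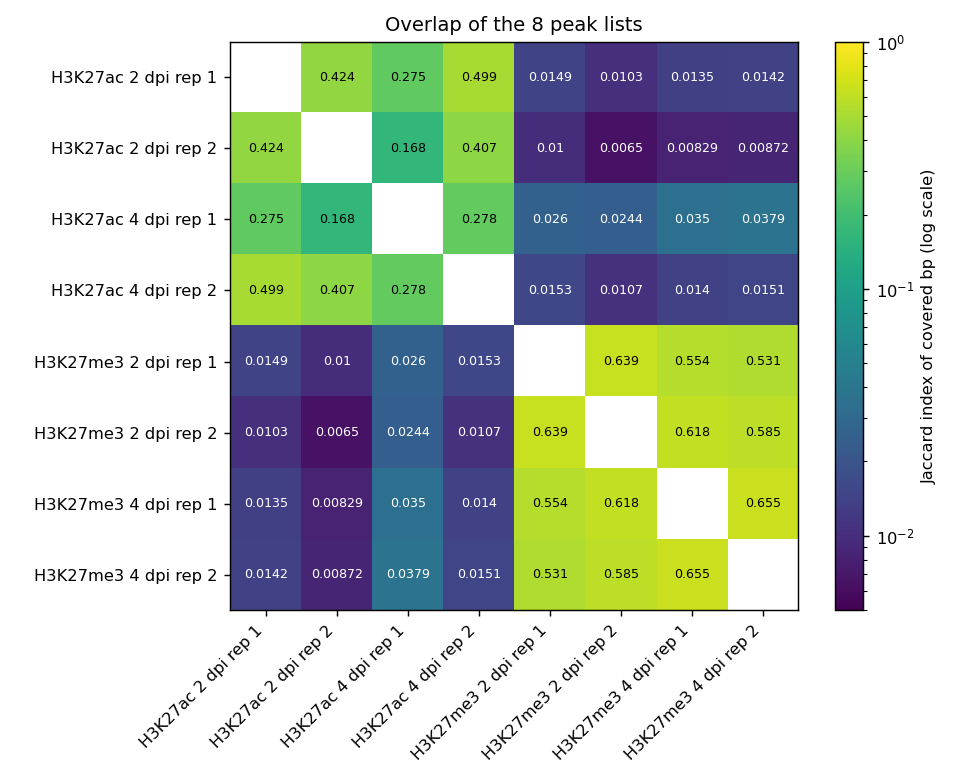
Base-pair Jaccard index of every pair of the 8 lists, on a logarithmic colour scale, with the value printed in each cell. The 2 blocks of the same mark lie between 0.168 and 0.655 and the cells between marks between 0.00650 and 0.0379, with the highest between-mark values in the row of H3K27ac 4 dpi replicate 1.

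Between the marks, the 4 pairs of 2 dpi libraries had a Jaccard index of 0.00650 to 0.0149 (mean 0.0104) and the 4 pairs of 4 dpi libraries one of 0.0140 to 0.0379 (mean 0.0255). H3K27ac of 2 dpi against H3K27me3 of 4 dpi gave 0.0112, and H3K27ac of 4 dpi against H3K27me3 of 2 dpi gave 0.0191. Pairs of the same time point exceeded pairs of different time points by 0.00281 (2-sided exact permutation test over 36 relabellings, p = 0.111, adjusted p = 0.167). As this is the smallest p the design allows, the test cannot show a difference by time or its absence. Leaving out H3K27me3 4 dpi replicate 1 or 2 turned this difference to -0.000771 or -0.00126, and without H3K27ac 4 dpi replicate 1 it was 1.34e-05.

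Although their peaks rarely coincided, both marks were found in the same large neighbourhoods. Over all 2729 windows of 1 Mb, the covered shares of H3K27ac and H3K27me3 correlated with a Spearman's rho of 0.664 to 0.734 across the 16 pairs (a description across windows, which share libraries, mappability and gene density). Over the 1994 to 2070 autosomal windows with a peak of the pair, which leaves out X, Y and windows with neither mark, rho was 0.415 to 0.526. To see at which scale they parted, the shared length was divided by the length that the product of both coverages would give. Taken over the whole genome this ratio had a mean of 1.19 (0.752 to 1.71), close to the value of 1 that coverage alone would give. Computed within windows of 1 Mb it was 0.666 (0.413 to 1.02) and within 100 kb it was 0.758 (0.507 to 1.06), which is less shared DNA than coverage in the same neighbourhood would give. In windows of 10 kb, not much wider than the peaks themselves, it was 1.07 (0.866 to 1.20). Without H3K27ac 4 dpi replicate 1 the means were 1.05 for the genome, 0.576 for 1 Mb, 0.686 for 100 kb and 1.05 for 10 kb. The libraries of a mark differed among themselves here, since H3K27me3 2 dpi replicate 1 had a mean genome-wide ratio of 1.42 over its 4 pairs, and replicate 2 of the same time one of 0.981.

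The coverage of one mark was also followed around the edges of the other. On average, H3K27ac did not drop across the edge of H3K27me3 peaks, but was lower deeper inside. Inside H3K27me3 peaks of the same time point, H3K27ac covered 5.73% of the first 1 kb from the edge (mean of 8 pairs, 1.5% to 14.3%) and 3.04% of the DNA more than 5 kb from any edge (0.398% to 9.64%). Outside, it covered 4.76% of the first 1 kb, rose to 6.13% at 20 to 50 kb and fell to 0.540% beyond 500 kb. The maximum at 20 to 50 kb holds for the mean only. In 5 of the 8 pairs the highest share lay 20 to 100 kb outside, and in 3, which are both pairs with H3K27ac 4 dpi replicate 1 and that of the 2 dpi replicates 1, in the first 1 kb inside. Without H3K27ac 4 dpi replicate 1, the values were 3.00% and 1.14% inside, and 2.41%, 3.73% and 0.328% outside. In reverse, H3K27me3 covered 3.42% of the outer 1 kb of H3K27ac peaks, 2.29% at a depth of 2 to 5 kb, and 5.30% of the DNA 20 to 50 kb outside. Its cover of H3K27ac beyond 5 kb depth, 2.53% to 11.9%, rests on few wide peaks, only 0.0839 to 0.528 Mb per library outside H3K27ac 4 dpi replicate 1, which had 21.8 Mb. Stitching H3K27me3 peaks less than 5 kb apart, an alternative chosen after seeing the data, gave 6.12% and 3.5% inside.

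**Figure D2:**
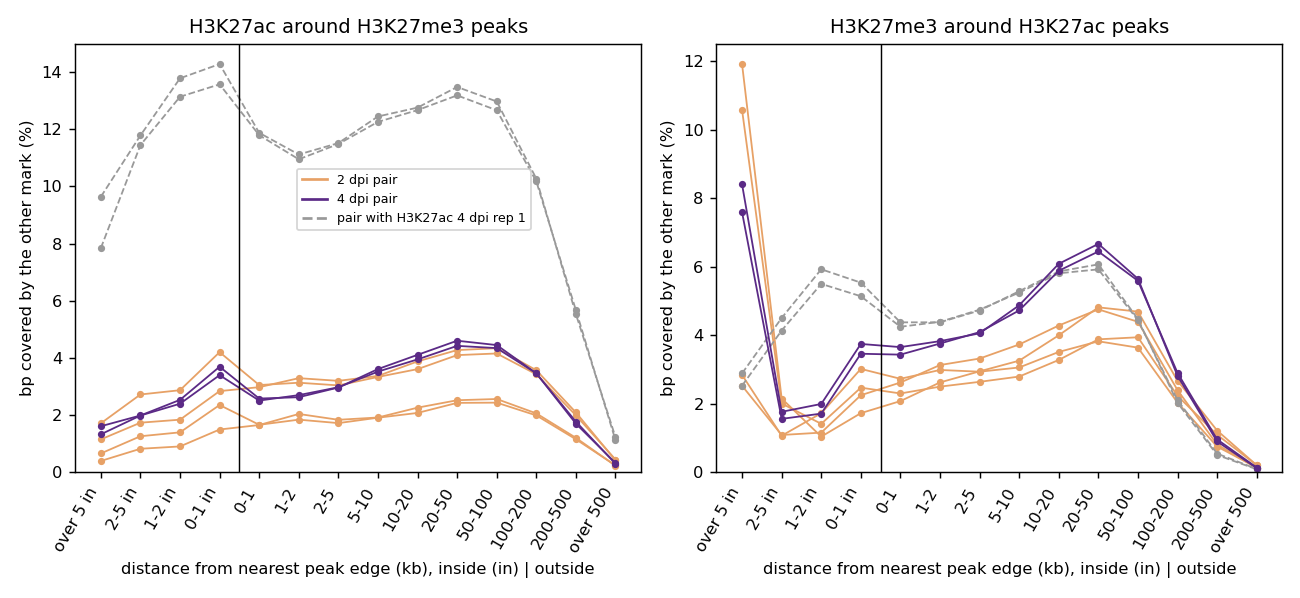
Share of bp covered by H3K27ac (left) around H3K27me3 peaks and by H3K27me3 (right) around H3K27ac peaks, by distance from the nearest peak edge in kb, inside the peak to the left of the vertical line and outside to its right, 1 line per pair of libraries of the same time point. On the left, 5 of the 8 lines are highest at 20 to 100 kb outside and 3 in the first 1 kb inside, and the mean falls to 0.540% beyond 500 kb.

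H3K27me3 peaks were the wider, with a median of 3448 ± 372 bp (SD, n = 4) against 2195 ± 1386 bp (SD, n = 4) for H3K27ac, a difference within the spread of the H3K27ac lists (2-sided exact permutation test over 70 relabellings, p = 0.143, adjusted p = 0.184). Few peaks of either mark touched the other. Of H3K27ac peaks, 3.87% and 3.00% overlapped an H3K27me3 peak of the same time by at least 1 bp at 2 dpi, and 9.0% and 4.92% at 4 dpi (mean over the 2 H3K27me3 lists of that time). Of H3K27me3 peaks, 8.55% and 6.69% overlapped H3K27ac at 2 dpi and 15.7% and 16.4% at 4 dpi. The 4 dpi libraries of both marks were above the 2 dpi libraries of the same mark in all cases, but with 2 libraries against 2 an exact permutation test cannot go below p = 0.333. Between the marks the means were 5.20% ± 2.65 (SD, n = 4) for H3K27ac and 11.8% ± 4.92 (SD, n = 4) for H3K27me3 (2-sided exact permutation test over 70 relabellings, p = 0.0857, adjusted p = 0.154). H3K27ac peaks were the more numerous. With all lists reduced to the 12060 peaks of highest total signal, the difference of -6.63 percentage points shrank to -0.379. As a share of length, 3.11% ± 1.29 (SD, n = 4) of H3K27ac lay under H3K27me3 and 4.78% ± 3.19 (SD, n = 4) of H3K27me3 under H3K27ac (exact permutation p = 0.371, adjusted p = 0.418).

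Distances to the nearest peak of the other mark followed the same order. For H3K27ac peaks that did not meet H3K27me3 the median distance was 87.2 and 86.4 kb at 2 dpi and 75.1 and 73.6 kb at 4 dpi. For H3K27me3 peaks it was 41.6 and 40.4 kb at 2 dpi and 27.8 and 28.2 kb at 4 dpi. The marks did not overlap in this measure, and both were nearer to the other at 4 dpi. The difference of 46.1 kb between the marks was at the smallest p of the design (exact permutation test, p = 0.0286, adjusted p = 0.0643), and fell to 16.3 kb with lists of equal length. The distances of both marks were measured between the same lists and depend on each other, which the permutation test does not take into account. Only 4.69% of H3K27ac peaks and 10.5% of H3K27me3 peaks lay within 5 kb of the other mark without touching it, whereas 40.7% and 17.7% were more than 100 kb away (means of 4 libraries).

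The strength of the peaks that met the other mark went in opposite directions. Strength was taken as the percentile of total signal within a list, where 100 is the strongest peak. H3K27ac peaks that met H3K27me3 had a median percentile of 42.1 and 41.7 at 2 dpi and 46.6 and 39.2 at 4 dpi, against 50.2 to 50.5 for those that did not. H3K27me3 peaks that met H3K27ac had one of 57.2, 59.2, 58.0 and 55.5 in the same order, against 48.8 to 49.3. The lowering was seen in 4 of 4 H3K27ac libraries and the raising in 4 of 4 H3K27me3 libraries. The contrast between marks of -16.3 points was at the smallest p of the design (2-sided exact permutation test, p = 0.0286, adjusted p = 0.0643), and was -4.32 points with lists of equal length. Wide peaks have more total signal and more chance to touch another peak. By deciles of the lists, 6.07% of the weakest and 4.71% of the strongest H3K27ac peaks met H3K27me3, and 9.40% of the weakest and 16.6% of the strongest H3K27me3 peaks met H3K27ac. By length the order was the same for both marks, since the share of H3K27me3 covered by H3K27ac fell from 6.43% in the weakest to 3.35% in the strongest decile, and that of H3K27ac covered by H3K27me3 from 5.09% to 1.87%. Strong domains of either mark were thus covered by the other over a smaller share of their length.

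**Figure D3:**
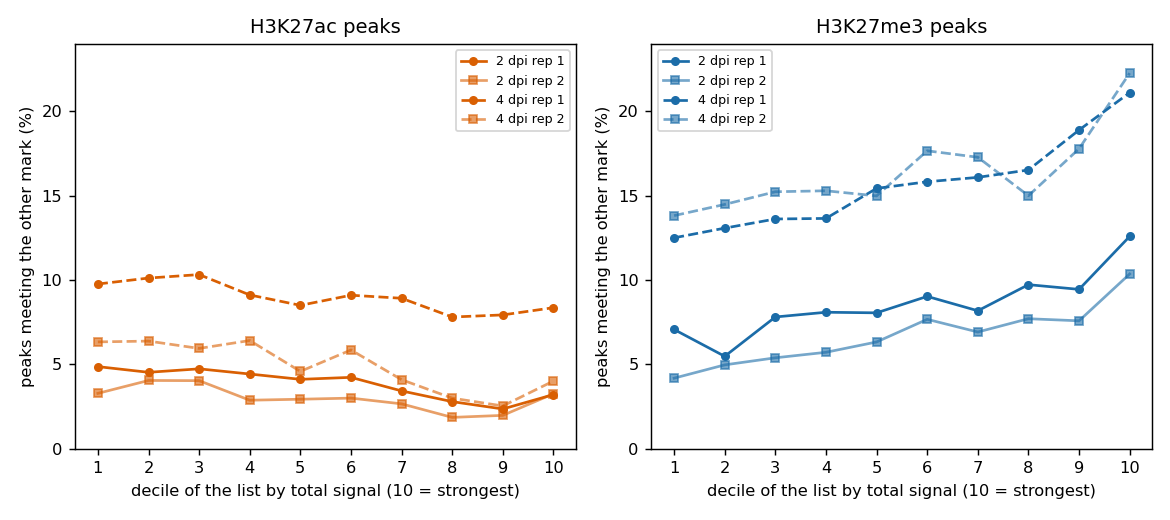
Percentage of H3K27ac peaks (left) and H3K27me3 peaks (right) that overlapped a peak of the other mark of the same time, by decile of each list from weakest (1) to strongest (10), 1 line per library. The H3K27me3 lines rise to 10.4% to 22.3% in the strongest decile, while the H3K27ac lines end at 3.21% to 8.37%, lower than in their weakest decile.

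Without H3K27ac 4 dpi replicate 1, 6 of the 9 contrasts, those of overlap, width, peaks meeting, distance, strength and the comparison with H3K4me3 below, had an adjusted p of 0.0429 in exact permutation tests. With all 8 libraries none of the 9 passed 0.05, and 4 of them were at a p of 0.0286 in exact permutation tests. These 4 had the same p, the smallest the design allows, in both settings. Their adjusted p fell because 6 rather than 4 of the 9 tests were at that smallest p, not because their own p changed. Replicates share a mouse strain and the markers used for sorting. The paper calls them biological replicates, but the labels do not say that libraries come from separate animals. These tests may therefore measure technical spread. For peaks meeting, length under the other mark, distance and strength, each library was measured against the lists of the other mark. The values of the marks thus come from the same pairs of lists and are not independent. The comparisons with H3K4me3 and H3K18la share the H3K27me3 lists. The paper also states that all marks were profiled in the same samples, so libraries of different marks may share animals. The p of these contrasts is therefore a description.

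DNA that carried both marks held more H3K4me3 than either mark as a whole. H3K4me3 peaks of the same time covered 54.3% of the shared length as a mean of 8 pairs (22.9% to 73.0%). The like means were 40.2% of all H3K27ac and 6.48% of all H3K27me3. With the pairs weighted by length, an alternative chosen after seeing the data, 35.3% of the shared length was covered. That value is not comparable with the unweighted means, and the marks as a whole were not weighted in this way. The 2 pairs with H3K27ac 4 dpi replicate 1 were lowest, with 24.3% and 22.9%, and in those pairs H3K4me3 covered 18.9% of H3K27ac. Without those pairs the share weighted by length was 62.2%. In each of the 8 pairs the shared DNA had more H3K4me3 than the H3K27ac list as a whole. H3K4me3 in turn lay more under H3K27me3 than H3K27ac did. H3K27me3 covered 10.4% and 9.27% of H3K4me3 at 2 dpi and 11.8% and 10.4% at 4 dpi, and 2.31%, 2.03%, 4.89% and 3.21% of H3K27ac in the same order. The groups did not overlap (difference of -7.35 percentage points, exact permutation p = 0.0286, adjusted p = 0.0643). Lactylation of lysine 18 (H3K18la), another acylation, did not differ detectably from H3K27ac, with 3.54% against 3.11% of its length under H3K27me3 (exact permutation p = 0.571).

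Peaks of a mark were merged over its 4 libraries into regions, of which 13494 of 43335 H3K27ac regions and 7515 of 16869 H3K27me3 regions held a peak in every library of the mark. Of these H3K27ac regions 12359 (91.6%) met no H3K27me3 peak in any of the 4 libraries, and 530 (3.93%) met one in all 4. Of the H3K27me3 regions 5272 (70.2%) were free of H3K27ac and 448 (5.96%) met it in all 4 libraries. Intermediate cases were less frequent for H3K27ac, with 605 regions met by 1 to 3 libraries, than for H3K27me3, with 1795. Of these, 257 and 1069 were met by 1 library only. H3K27ac 4 dpi replicate 1 covered 10.4% to 12.9% of the length of the H3K27me3 lists, and the other H3K27ac libraries 1.05% to 3.38%. Which library met the regions met by only 1 was not counted. Both the narrowest and the widest H3K27me3 regions were free of H3K27ac less often than those between. The free share was 0% of 18 regions up to 1 kb and 53.2% of 47 of 1 to 2 kb. It was 75.1% of 1936 of 2 to 5 kb and then fell through 71.5%, 66.5% and 60.8% to 50.9% of 57 over 50 kb. H3K27ac regions had the same order, with 55.3% of 38 up to 1 kb free of H3K27me3. Their free share was 92.7% of 5045 of 5 to 10 kb and 80% of 15 over 50 kb. The widest H3K27me3 region, of 184 kb at chr7:131899866-132084001 (GRCm39), met H3K27ac in all 4 libraries. The third widest, of 141 kb at chr15:6967543-7108842, met none. The widest H3K27ac region, of 82.4 kb at chr14:25454802-25537249, met H3K27me3 in 2 libraries, and the next, of 75.8 kb at chr8:127540409-127616205, in none. Genes were not assigned to these coordinates, because the annotation at hand is of another build.

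Places with both marks in both replicates were few and small. At 2 dpi there were 457, covering 412 kb with a median length of 768 bp, and at 4 dpi 1124, covering 1424 kb with a median of 1129 bp. Without H3K27ac 4 dpi replicate 1 there were 1363 at 4 dpi. With lists of equal length the counts were 194 and 236, so that the rise from 2 to 4 dpi was much smaller when lists held the same number of peaks. In all 8 libraries both marks were found at 328 places (286 kb). Of these, 262 lay on H3K4me3 in all 4 H3K4me3 libraries and 24 on none, while 146 carried H3K18la in all 4 of its libraries.

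The 10 strongest of these 328 places, ranked by the lower of the mean percentiles of both marks, were of different kinds. The first 3, at chr2:98496583-98497677, chr17:40153888-40159720 and chr9:124254054-124259696, and those at chr2:98492577-98493172 and chr12:3159872-3160121, were among 9 places in the top 1% by maximum signal in all 8 lists. At the first, percentiles were 100 in all 4 H3K27ac lists and 99.9 to 100 in the H3K27me3 lists. Whether such places reflect the marks or signal that any library yields was not tested. Removing the 9 places changed no call of the 9 contrasts. The other 5 of the 10 were not high in all 8 lists. At chr4:48045563-48046295 H3K27ac peaks stood at percentiles 97.5, 97.9, 95.1 and 98.6 and H3K27me3 peaks at 97.5, 96.2, 96.3 and 97.0 (2 dpi replicates 1 and 2, then 4 dpi), with H3K4me3 in 4 libraries and H3K18la in 0. At chr2:57004286-57007279 H3K27me3 was above percentile 99 in all 4 lists and H3K27ac at 97.1, 97.2, 89.0 and 94.5. The others lay at chr2:160209508-160210402, chr6:89398441-89400357 and chr1:170891301-170893284, with percentiles of 81.3 to 100 in all lists of both marks. All 10 carried H3K4me3 in all 4 libraries.

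H3K4me3 regions called in all 4 H3K4me3 libraries, 13298 in number, were used in place of promoters and sorted by their marks on lysine 27 (a mark was counted as present where both replicates held a peak and as absent where neither did, and all other regions were called mixed). At 2 dpi 9967 (75.0%) carried H3K27ac without H3K27me3, 619 (4.65%) H3K27me3 without H3K27ac, 450 (3.38%) both and 476 (3.58%) neither. At 4 dpi the numbers were 10359 (77.9%), 527 (3.96%), 686 (5.16%) and 339 (2.55%). Without H3K27ac 4 dpi replicate 1, 762 carried both at 4 dpi. With lists of equal length the regions with both numbered 196 at 2 dpi and 170 at 4 dpi, the opposite order.

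None of these H3K4me3 regions passed from one mark alone to the other alone. Regions that gained or lost H3K4me3 between 2 and 4 dpi were left out beforehand, so that a passage there could not be counted. Of the 9967 regions with H3K27ac alone at 2 dpi, 9408 kept this state, 40 carried both at 4 dpi, 54 carried neither and 0 carried H3K27me3 alone, and the rest were mixed. Of the 619 with H3K27me3 alone, 422 kept it, 54 carried both and 0 carried H3K27ac alone, and the rest were mixed. Of the 476 with neither, 108 carried H3K27ac alone and 8 H3K27me3 alone at 4 dpi. Regions with both at 2 dpi kept both in 351 of 450 cases, lost H3K27me3 in 16 and lost H3K27ac in 9. When 1 library was left out, which weakens the demand of both replicates, 0 to 1 regions went from H3K27ac to H3K27me3 and 0 to 5 the other way (1 and 0 without H3K27ac 4 dpi replicate 1).

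**Figure D4:**
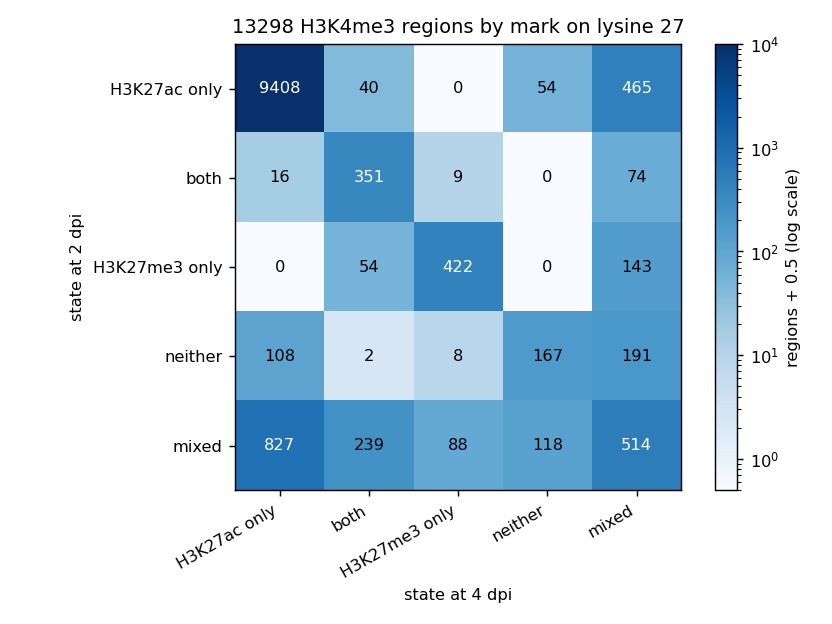
Numbers of the 13298 H3K4me3 regions by state of lysine 27 at 2 dpi (rows) and 4 dpi (columns), coloured on a log scale of the count + 0.5. The largest cell is H3K27ac alone at both times with 9408, and the cells from H3K27ac alone to H3K27me3 alone and back hold 0.

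Anywhere in the genome, 7 places carried H3K27ac and no H3K27me3 in both 2 dpi replicates and H3K27me3 and no H3K27ac in both 4 dpi replicates. They summed to 2.105 kb, with a median length of 90 bp, and 2 reached 500 bp. The opposite passage, from H3K27me3 to H3K27ac, was seen at 32 places summing to 8.062 kb, with a median of 129.5 bp, of which 7 reached 500 bp. The order of the directions is not stable, since 60 and 42 places were counted without H3K27ac 4 dpi replicate 1, 66 and 35 without H3K27ac 2 dpi replicate 2, and 10 and 12 with lists of equal length. When absence of the other mark was not demanded, 618 places had H3K27ac in both 2 dpi and H3K27me3 in both 4 dpi libraries and 819 the reverse, covering 605 and 979 kb (618 and 993 places without H3K27ac 4 dpi replicate 1). Over nearly all of that length the later mark was already called at 2 dpi, or the earlier mark still called at 4 dpi, in at least 1 library. When overlaps of at least 50% of the shorter peak were demanded, 2 places were left in each direction. The strict places were mostly slivers next to peak edges. At 6 of the 7 and 31 of the 32, the nearest peak of the later mark at 2 dpi or of the earlier mark at 4 dpi lay within 1 kb in at least 1 library.

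The exception among the 7 was chr13:41520180-41521106, 927 bp long. It lay in H3K27ac peaks of percentile 34.6 and 18.8 at 2 dpi and in H3K27me3 peaks of percentile 27.2 and 33.8 at 4 dpi. The nearest H3K27me3 at 2 dpi was 10.7 and 10.9 kb away and the nearest H3K27ac at 4 dpi 6.88 and 7.45 kb. These are weak peaks of 0.927 to 2.03 kb. H3K4me3 was called there in 0 libraries and H3K18la in 3. At chr8:34148332-34149021, 690 bp, weak H3K27ac peaks of percentile 12.5 and 1.21 at 2 dpi were followed at 4 dpi by H3K27me3 peaks of 21.1 and 21.4 kb at percentiles 97.0 and 96.9, but H3K27me3 already lay 0.794 and 1.15 kb away at 2 dpi. The highest ranked place, chr1:134383636-134383684, measured only 49 bp at the edge of H3K27me3 peaks of 29.5 and 30.4 kb. The other 4 measured 13 to 266 bp.

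Of the 32 places that passed to H3K27ac, the 10 highest ranked measured 13 to 548 bp. The first, chr9:118436267-118436334, lay at 2 dpi in H3K27me3 peaks of percentile 92.4 and 89.3 and at 4 dpi in H3K27ac peaks of percentile 97.5 and 58.1. At 2 dpi the nearest H3K27ac was 6.79 and 10.2 kb away, whereas at 4 dpi H3K27me3 still began 0 and 54 bp from it. The H3K27ac peak over the place was 18.7 kb long in 4 dpi replicate 1, the library with wide peaks, and 2.05 kb in replicate 2. H3K27ac was thus called next to H3K27me3 that remained. The second, chr4:150134399-150134494, had H3K27me3 at percentiles 73.8 and 66.0 and then H3K27ac at 99.3 and 90.4, with H3K4me3 in all 4 libraries and H3K27ac 0 and 248 bp away at 2 dpi. The longest of the 32 had 1081 bp but ranked below these. The exception without such a peak within 1 kb was chr6:89425825-89426674, 850 bp long and also ranked below the first 10. It lay in H3K27me3 peaks of percentile 15.6 and 42.6 at 2 dpi and in H3K27ac peaks of percentile 54.9 and 35.3 at 4 dpi. The nearest H3K27ac at 2 dpi was 16.3 and 24.5 kb away and the nearest H3K27me3 at 4 dpi 2.78 and 4.11 kb.

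**Figure D5:**
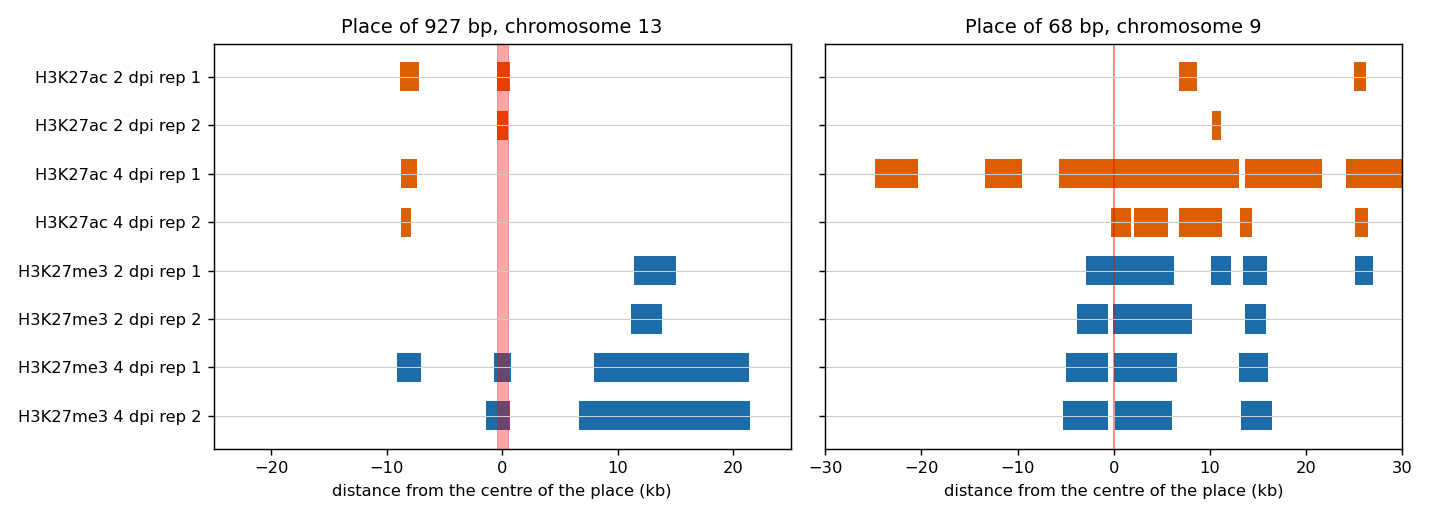
Peaks of the 8 lists (H3K27ac orange, H3K27me3 blue) around the 927 bp place on chromosome 13 that passed from H3K27ac to H3K27me3 (left) and the 68 bp place on chromosome 9 that passed from H3K27me3 to H3K27ac (right), by distance from the centre of the place in kb. The red band is the place itself. On the left it is covered by H3K27ac only at 2 dpi and by H3K27me3 only at 4 dpi. On the right the H3K27ac peaks over it at 4 dpi are 18.7 kb long in replicate 1 and 2.05 kb in replicate 2, and H3K27me3 peaks are seen around it at both times.

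Regions gained or lost by one mark seldom coincided with a loss or gain of the other, which was also rare in regions called in all 4 libraries. H3K27me3 was gained at 1758 regions (in both 4 dpi and neither 2 dpi library). Of these, 1288 (73.3%) met H3K27ac in no library, 118 met it in both 4 dpi libraries, 40 gained it and 1 lost it. For comparison, 5272 of 7515 H3K27me3 regions of all 4 libraries (70.2%) never met H3K27ac. Of 2527 regions that gained H3K27ac, 2212 (87.5%) met no H3K27me3, 43 gained it as well and 2 lost it. Of 305 that lost H3K27ac, 1 (0.328%) gained H3K27me3. Of 148 that lost H3K27me3, 2 (1.35%) gained H3K27ac and 0 lost it. Shares were also low in lasting regions, as 184 of the 7515 H3K27me3 regions (2.45%) gained H3K27ac and 11 (0.146%) lost it, against 2.28% and 0.0569% of the regions that gained H3K27me3. Of the 13494 H3K27ac regions of all 4 libraries, 81 (0.6%) gained H3K27me3 and 22 (0.163%) lost it, against 1.70% and 0.0791% of the regions that gained H3K27ac. These shares are a description without a test.

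To measure change within lasting regions, those called in all 4 libraries of a mark were ranked by total signal within each library and ranks turned into normal scores, so that a shift of 1 equals 1 SD of the ranked signal. In limma, 24 of 13494 H3K27ac regions (0.178%) rose and 1 (0.00741%) fell at an adjusted p under 0.05. Of 7515 H3K27me3 regions 67 (0.892%) rose and 4 (0.0532%) fell. Among the 664 H3K27ac regions that met an H3K27me3 region of all 4 libraries, 3 rose and 0 fell (0.452%, against 0.185% called in either direction over all). Among 685 H3K27me3 regions that met such H3K27ac regions, 12 rose and 2 fell (2.04%, against 0.945% over all). These counts are small and changed with the scale. With the maximum in place of total signal, 0 H3K27ac regions of 13494 and 4 H3K27me3 regions of 7515 were called by limma, 0 of them meeting the other mark (753 and 662 H3K27ac regions rose and fell at an unadjusted p under 0.05). Without H3K27me3 4 dpi replicate 1 or 2, 6 and 2 H3K27me3 regions were called, and without H3K27me3 2 dpi replicate 2, 484. For H3K27ac the number called and its direction also changed when 1 library was left out. Rises no longer outnumbered falls without 4 dpi replicate 1, so that the excess of rises is not stable. Such fits leave 1 library at a time point. Over all 13494 H3K27ac regions the median shift was -0.0654, and in the fit without 4 dpi replicate 1 it was -0.0113 over all regions.

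The 3 H3K27ac regions that rose beside H3K27me3 all carried H3K4me3 in 4 libraries and H3K27me3 at both times. The largest shift was at chr9:118430627-118449287 (18.7 kb), which holds the place on chromosome 9 described above. It stood at percentiles 4.25 and 4.79 among H3K27ac regions at 2 dpi and at 93.2 and 91.9 at 4 dpi, a shift of 3.14 ± 0.36 (SE; limma adjusted p = 0.00373). The others, at chr13:13544883-13584065 and chr13:12636339-12667467, were strong at both times, rising from percentiles 96.9 and 97.0 to 99.4 and 99.6 and from 98.7 and 97.7 to 99.6 and 99.8.

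Of the 14 H3K27me3 regions called beside H3K27ac, the largest rise was at chr6:47648373-47663973, from percentiles 11.4 and 2.50 to 66.1 and 83.7, a shift of 2.28 ± 0.31 (SE; limma adjusted p = 0.0237). H3K27ac was called there in both libraries of both times. The 2 that fell, at chr17:10551201-10557427 (from 76.3 and 66.8 to 22.3 and 33.3) and chr16:91653494-91666924 (from 72.9 and 74.8 to 43.4 and 35), also kept H3K27ac at both times and H3K4me3 in all 4 libraries. The region at chr8:34143849-34165336, which holds the 690 bp place described above, rose from percentiles 84.8 and 78.1 to 93.1 and 92.6 (limma adjusted p = 0.0460). In the 710 pairs of meeting regions the shifts of the marks were nearly unrelated, with a Spearman's rho of 0.06, a description across regions. Opposite signs were counted in 197 pairs with H3K27ac up and H3K27me3 down and 142 the other way, and the same sign in 155 up and 214 down.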

How the data were processed

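Peak lists of H3K27ac and H3K27me3 were analysed, with those of H3K4me3 and H3K18la for comparison. The submitters' processing notes name Trim Galore 0.6.6, Bowtie2 2.4.4, SAMtools 1.13, bedtools 2.30 and, for peak calling, SEACR 1.3 (per library, threshold 0.01, stringent). The deposited signal is the summed and maximum coverage of each peak, which the authors did not normalize between libraries. It was ranked within lists, except in 1 median-scaled alternative. Depth per sample is not in the files.

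Coordinates are of GRCm39, as the labels state, although the methods of the study name mm10 for the alignment. The only annotation at hand was of GRCm38, on which some chromosomes are shorter than the peaks reach, and no conversion was made, so that promoters, genes, cell type markers and sequences were not used here. H3K4me3 regions stood in for promoters, chosen after seeing the data. Peaks on 21 chromosomes were kept (10 to 49 per list left out). The methods of the study describe a removal of peaks on blacklisted regions. None was done here, places high in all lists are present, and it is not known whether the lists precede that step.

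Peaks met when they shared at least 1 bp, and values were averaged over the lists of the other mark at the same time. The genome was taken as 2720 Mb, the sum of the last peak ends. Libraries were compared by 2-sided exact permutation tests with Benjamini-Hochberg adjustment over 9 tests, and region shifts with limma 3.58.1 (trended, robust) under R 4.3.3. Tools were tested on simulated data. Named places are the 10 of each direction, and the 10 with both marks in all 8 libraries, with the highest lower of the mean percentiles of both marks. Widest and called regions, the longest place and the 850 bp place on chromosome 6 were chosen after their values were seen. Members and tests were chosen with earlier results of these data known. Alternatives were lists of equal length, the stronger 50% of each list, each library left out, removal of 9 places high in all lists, an overlap of 50%, maximum or median-scaled signal, and the replicate number as a block. Replicates of H3K27me3 at 4 dpi follow the labels, which are crossed relative to the file naming.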

Additional observations from a re-analysis of the deposited data

Results flagged for a closer look

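Outliers were looked for in 16 measures per mark, each over 4 libraries, and 6 of these 32 groups held a library far from the other 3. Chance alone flags about 1 in 20 groups, and the measures are related. Of the H3K27ac libraries, 4 dpi replicate 1 covered 205 Mb against 37.8 to 65.3 Mb, with a median peak width of 4250 bp against 1218 to 1719 bp. The width was alike for its peaks that met H3K27me3 (4341 bp against 1116 to 1548 bp) and those that did not (4239 bp against 1222 to 1727 bp). In its strongest decile 8.37% of peaks met H3K27me3, against 3.21% to 4.02%. It is the library whose description begins with S100, and whether that prefix or the biology of the sample sets its width cannot be told apart. Of the H3K27me3 libraries, 2 dpi replicate 1 had a median width of 3065 bp among peaks that met H3K27ac, against 3970 to 4051 bp.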

How the results depend on the processing

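The contrasts of overlap within and between marks, of distance, of strength and of H3K27ac with H3K4me3 kept their direction in every alternative. With lists of equal length, the width difference turned to 12.4 bp (from -1253) and the difference in length under the other mark to 0.0990 percentage points (from -1.67). The counts then were 194 and 236 places with both marks at 2 and 4 dpi, 206 and 224 loose passages to H3K27me3 and to H3K27ac, 12 strict passages to H3K27ac, 196 and 170 H3K4me3 regions with both marks and 2 passing to H3K27ac, 1 and 0 called H3K27ac regions in all and beside H3K27me3, and 7 H3K27me3 regions beside H3K27ac. With the stronger 50% of each list they were 124 and 260, 155 and 198, 2 and 8 strict passages, 104 and 146 H3K4me3 regions, 43 and 5 called H3K27ac regions, and 2 and 0 H3K27me3 regions. An overlap of 50% left 2 and 2 strict passages. With maximum signal 0 and 0 H3K27ac and 4 and 0 H3K27me3 regions were called, and with median-scaled signal 68 H3K27ac regions.

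Leaving out 1 library gave 0.404 to 0.534 for overlap within minus between marks, -0.00126 to 0.00679 for same minus other time, -1938 to -927 bp for width, -9.65 to -4.78 and -4.18 to 0.200 percentage points for peaks meeting and length under the other mark, 41280 to 51192 bp for distance, -19.2 to -13.7 for strength, -7.95 to -6.89 against H3K4me3 and -1.02 to -0.0651 against H3K18la. The negative values of same minus other time came without H3K27me3 4 dpi replicate 1 (-0.000771) or 2 (-0.00126), and 0.200 without H3K27ac 4 dpi replicate 1. Counts ranged over 457 to 977 and 1124 to 2998 places with both marks at 2 and 4 dpi (the highest without H3K27ac 2 dpi replicate 2 and 4 dpi replicate 2), 618 to 1283 and 819 to 2165 loose passages, 7 to 66 and 35 to 184 strict ones, 450 to 676 and 686 to 918 H3K4me3 regions with both, 0 to 1 and 0 to 5 passing, 25 to 284 and 3 to 23 called H3K27ac regions in all and beside H3K27me3, and 2 to 484 and 0 to 55 H3K27me3 regions. Fewer libraries make the demand of both replicates easier to meet. The cause of the other changes was not tested.

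The replicate numbers do not pair these samples, as the mice of 2 and 4 dpi differ. Deviations of same-numbered libraries correlated at 0.0862 (H3K27ac) and -0.0520 (H3K27me3). With the replicate block in limma 581 and 49 H3K27ac regions and 209 and 28 H3K27me3 regions were called in all and beside the other mark. With the replicate block between marks (sign-flip test, smallest p 0.125) the differences were unchanged in size and no contrast passed. The planned counts over promoter windows were not run. Depth is unknown, so that more overlap at 4 dpi cannot be told apart from longer lists.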
